A study of Rattus norvegicus with 16 samples.

Results

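Femoral gene expression of Fischer 344 (F344) rats was set against that of 3 other inbred strains, Lewis (LEW), Copenhagen 2331 (COP) and Dark Agouti (DA). A gene was taken as private to F344 when its signals on all 4 F344 arrays lay above, or all below, each of the 12 arrays of the other strains. By that rule 555 of 10548 genes were private to F344, or 5.26% of the genes tested, with 237 higher (2.25%) and 318 lower (3.01%). The rule uses the signals themselves, so the count is a description and carries no test. Where private genes are said below to have F344 arrays apart from all others, that restates the rule and is no further result.

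The study measured total RNA of the proximal femur, the hip end of the thigh bone, on 16 Affymetrix rat arrays, 4 for each strain. All animals were 4 weeks old and untreated as far as the labels say. F344 and LEW were crossed in earlier work that mapped a skeletal locus to chromosome 4, and the series was made to find genes of that chromosome that differ in bone. The labels do not give sex and do not say that replicates were separate animals, so p-values measure the spread between these arrays, which may be technical. Each gene was represented by its brightest probe set, the group of short probes read as 1 signal, among those above a low-signal filter (a mean signal of 174). The number of arrays limits the precision.

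A piece of proximal femur holds bone, growth plate cartilage, blood-forming marrow and some attached muscle, so its RNA mixes many cell types. In such bulk RNA, fewer cells of a type and less RNA per cell cannot be told apart. The histocompatibility complex of the rat, called RT1, is among the most variable regions between inbred strains: its class I molecules show peptides to CD8+ T cells, and its class II molecules, built from an alpha and a beta chain, show peptides to CD4+ T cells.

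Markers of bone (Bglap, 48771 to 53311 in F344 and 50523 to 63221 in the 12 other arrays), of cartilage (Col2a1, 52260 to 58654 in F344 and 47470 to 61920 in the others) and of osteoclasts (Acp5, 30952 to 32265 in F344 and 24030.0 to 36504 in the others) were bright on all 16 arrays. Muscle transcripts were bright too, and Myh4, a fast muscle myosin, was 27667 to 30862 in F344 and 12005 to 25364 in the others. The T-cell gene Cd3e stayed at 10.8 to 147 in F344 and 5.86 to 149 in the others. The ratio of 3′ to 5′ signal, a measure of RNA integrity, was 1.02 to 1.06 for Gapdh in F344 and 0.970 to 1.04 in the others, 2.02 to 2.32 for Actb in F344 and 1.84 to 2.19 in the others, and 2.30 to 4.11 for Hk in F344 and 2.41 to 4.12 in the others. The ranges overlapped for all 3 controls. The F344 arrays varied least. Over the probe sets above the filter, their median standard deviation (SD) was 0.121 on the log2 scale. This median was 0.154 for LEW, 0.136 for COP and 0.150 for DA. A strain with tighter arrays meets the private rule more readily; how much of the F344 count this gives was not tested.

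The 4 class II genes RT1-Ba, RT1-Bb, RT1-Da and RT1-Db1 were private and higher in F344 and stand next to each other among the tested genes of chromosome 20. Their promoters are shown because the 4 genes moved together; each is the RefSeq sequence of the assembly GRCr8, which is not an F344 genome, from 250 bases before to 50 after the start of the gene. Class II promoters in mammals carry conserved X and Y boxes through which the factors RFX and NF-Y, with the coactivator Ciita, drive transcription. Capitals mark the core of the Y box, CCAAT or its reverse complement ATTGG, and the core of the X box, GCAACNG or its reverse complement CNGTTGC.
RT1-Ba: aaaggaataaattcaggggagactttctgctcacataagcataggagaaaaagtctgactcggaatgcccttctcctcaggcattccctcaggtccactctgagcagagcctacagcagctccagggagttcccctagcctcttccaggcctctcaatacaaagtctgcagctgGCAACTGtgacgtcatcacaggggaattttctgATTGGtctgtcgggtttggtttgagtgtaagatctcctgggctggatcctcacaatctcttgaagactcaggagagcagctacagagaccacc
RT1-Bb: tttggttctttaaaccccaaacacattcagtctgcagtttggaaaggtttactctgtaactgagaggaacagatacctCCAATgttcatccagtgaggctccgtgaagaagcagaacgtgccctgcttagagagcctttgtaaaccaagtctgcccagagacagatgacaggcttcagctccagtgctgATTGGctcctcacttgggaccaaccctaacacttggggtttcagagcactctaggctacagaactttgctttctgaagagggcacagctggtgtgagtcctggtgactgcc
RT1-Da: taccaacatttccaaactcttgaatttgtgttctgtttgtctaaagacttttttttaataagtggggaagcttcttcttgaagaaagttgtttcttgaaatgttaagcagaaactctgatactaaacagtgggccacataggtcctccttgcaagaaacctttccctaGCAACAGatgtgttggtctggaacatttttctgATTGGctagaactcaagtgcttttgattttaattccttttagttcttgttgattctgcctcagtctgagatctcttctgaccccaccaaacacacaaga
RT1-Db1: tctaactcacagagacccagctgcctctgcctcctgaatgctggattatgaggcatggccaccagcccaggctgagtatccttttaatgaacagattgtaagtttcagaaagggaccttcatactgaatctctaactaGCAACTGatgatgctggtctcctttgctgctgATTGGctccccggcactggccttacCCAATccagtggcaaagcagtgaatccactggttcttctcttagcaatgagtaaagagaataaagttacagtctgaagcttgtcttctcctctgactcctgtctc
These lie at chr20:4576807-4577106 (plus strand) for RT1-Ba, chr20:4604069-4604368 (minus strand) for RT1-Bb, chr20:4515165-4515464 (plus strand) for RT1-Da and chr20:4560113-4560412 (minus strand) for RT1-Db1. Both strands were searched, and the motifs did not overlap in these 4 promoters. RT1-Ba and RT1-Da held 1 CCAAT match each, RT1-Bb and RT1-Db1 held 2 each, and RT1-Ba, RT1-Da and RT1-Db1 also held 1 X box match each. Among all 33469 promoters of that length in the table, 12549 (37.5%) held CCAAT on either strand and 4084 (12.2%) held the X box core. A match describes the letters in the window and shows no binding.

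The alpha chain gene RT1-Ba had signals of 2327, 2142, 2272 and 1875 on the F344 arrays, against 280 to 1013 with a median of 770 on the 12 others. Every F344 array lay above every other array, as the private rule requires, and COP was the lowest strain with a mean of 420. The nearest strain was LEW: F344 averaged 2154 ± 201 while LEW averaged 909 ± 117 (SD, n = 4 each), which is 1.25 apart on the log2 scale (SE 0.20). F344 had to differ from each of the other strains in 1 direction to be called, so the p-value was the largest of the 3 from limma, adjusted over all 18625 kept probe sets, and was 6.97e-04 for RT1-Ba. Another RT1-Ba probe set, which failed the filter, was not private. Its means were 41.5 in F344 and 17.1 in LEW, against 240 in COP and 400 in DA. On the remaining probe sets of RT1-Ba, also unkept, the F344 range overlapped that of the others.

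Its partner RT1-Bb, the beta chain gene, had signals of 3484, 3529, 3139 and 3217 in F344, against 889 to 2061 with a median of 1653 in the others. RT1-Da, the alpha chain gene of the other class II pair, had 8087, 8007, 7689 and 8061 in F344, against 2404 to 5098 with a median of 4141. By the rule, neither gene had an F344 array within the range of the others. The differences from LEW, COP and DA were 0.89, 1.83 and 0.92 for RT1-Bb (limma adjusted p = 4.48e-07) and 0.92, 1.59 and 0.79 for RT1-Da (limma adjusted p = 9.16e-08).

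RT1-Db1, the beta chain gene paired with RT1-Da, had signals of 1614, 1756, 1681 and 1618 in F344, against 492 to 1311 with a median of 924 in the others. DA came nearest, at a mean of 1190 ± 83.6 (SD, n = 4) and F344 minus DA was 0.49 in log2 (SE 0.081, limma adjusted p = 0.00101). Another probe set of RT1-Db1 was private the same way, with a mean of 803 in F344, against LEW at 386, COP at 72.1 and DA at 85.5, although its adjusted p was 0.388 by limma. RT1 genes are close copies of each other and probe sets can read several of them, so the gene behind each RT1 signal is uncertain.

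Of the 11 tested genes of the class II list, 4 were private and higher (36.4%, against 2.25% of all genes). All 4 were called, where 0.711% of all genes were private, higher and called. These 4 are neighbours whose probe sets can read several RT1 copies, so they may not be separate readings. Rfx5 was private and lower (9.09% of the list, against 3.01% of all genes) without passing (differences of -0.14, -0.19 and -0.16, limma adjusted p = 0.430). Cd74, the invariant chain that escorts class II molecules, had differences of 0.64, 0.62 and 0.20 from LEW, COP and DA and did not pass (limma adjusted p = 0.164). Ciita, the class II coactivator, had -0.17, 0.050 and -0.53, and neither peptide-loading gene was private, with differences of 0.20, 0.48 and 0.56 for RT1-DMa and -0.033, 0.63 and 0.57 for RT1-DMb. The list's summed signal was 36410 to 38154 on the F344 arrays, against 23267 to 28841 on the others. The median difference of the list from the mean of the other strains was 0.41, where that of all tested genes was 0.0075.

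**Figure D1:**
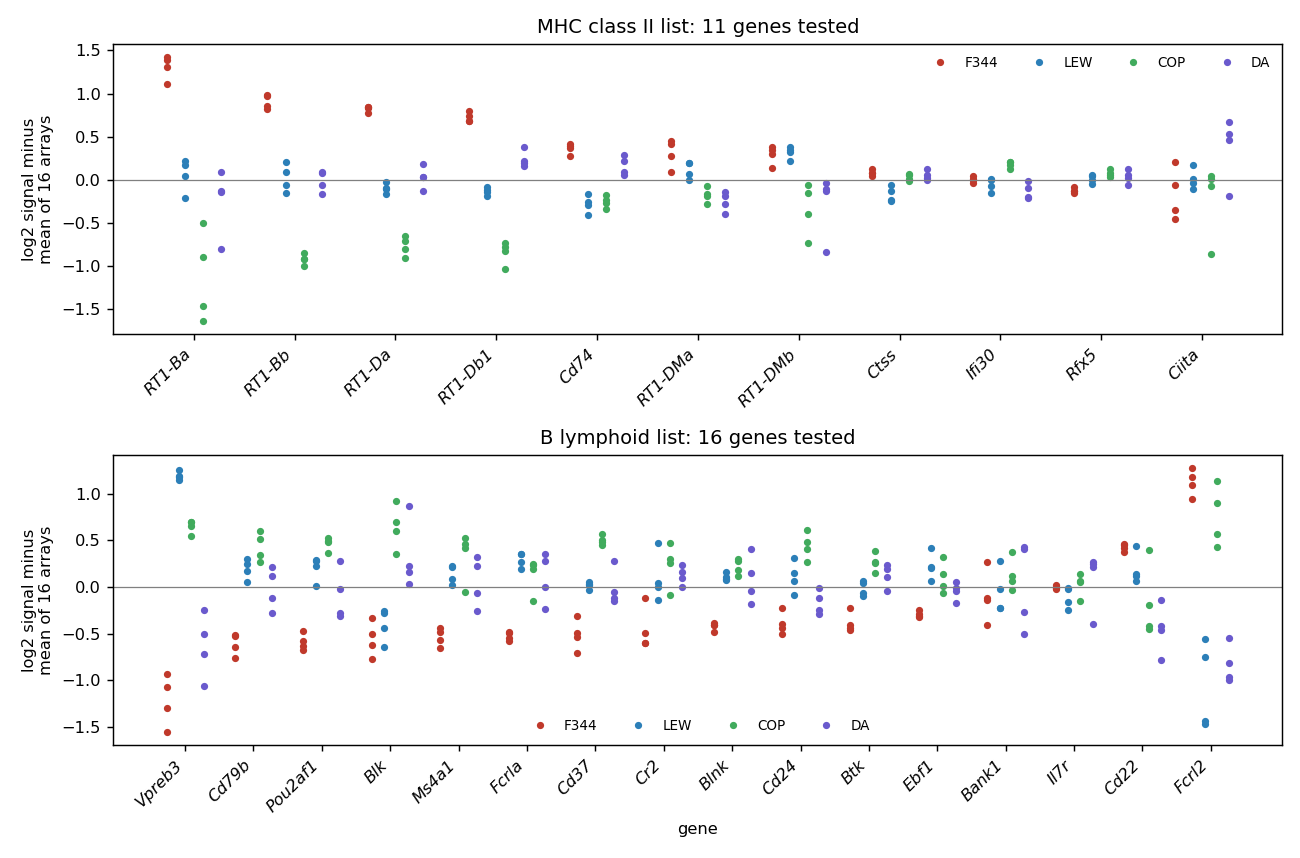
Each point is 1 array, as its log2 signal minus the mean of the 16 arrays, for the 11 tested genes of the MHC class II list (top) and the 16 of the B lymphoid list (bottom); colours are strains, with F344 leftmost. The F344 points lie above all others for RT1-Ba, RT1-Bb, RT1-Da and RT1-Db1, and below all others for 8 B lymphoid genes.

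Across all genes, F344 had more private genes than LEW (274, or 2.60%), COP (443, or 4.20%) or DA (233, or 2.21%) counted by the same rule. Private distances were mostly small: the gap, the log2 distance from the nearest F344 array to the nearest other array, had a median of 0.069. A gap of at least 0.5 was met by 40 genes in F344, against LEW at 30, COP at 30 and DA at 17, and a gap of at least 1 by 11 genes in F344, against 12, 2 and 9. At the edge of the rule, Zfp317 was just inside, with a lowest F344 signal of 1148.02 against a highest other of 1148.00, and Csnk1a1 just outside, with a lowest F344 signal of 8726.55 against a highest other of 8726.97. Counted by probe sets, 965 of 31042 were private to F344 (3.11%), of which 908 passed the low-signal filter (4.88% of the 18625 kept) and 57 did not.

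**Figure D2:**
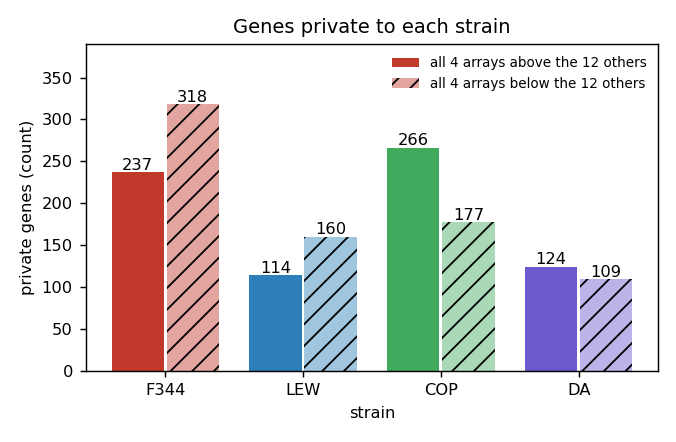
Bars count the genes (of 10548 tested) for which all 4 arrays of a strain lay above (plain) or below (hatched) the 12 arrays of the other strains. F344 had 237 higher and 318 lower, the most lower genes of the 4 strains; COP had the most higher genes, 266.

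The limma test against each of the other strains was fitted over all kept probe sets and called 376 of 18625 (2.02%), of which 365 were private. As genes these were 214 of 10548 (2.03%), and 209 of them were private (1.98%), 75 higher (0.711%) and 134 lower (1.27%). An average contrast, F344 minus the mean of the other strains, called 2233 genes (21.2%), but it can rest on 1 strain and was not used to name genes. The private rule and the test read the same signals, so the calls add the size of the array spread and no independent support. Among the 209 private genes that were called, the median distance from the nearest strain was 0.49 on the log2 scale, and in 184 of them the other strains' means spanned less than that distance. The nearest strain was LEW for 72 of these genes, COP for 59 and DA for 78. At least a 2-fold distance from the nearest strain was reached by 27 genes, 8 higher and 19 lower in F344.

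Itga1 had the largest gap among the named genes higher in F344. It encodes an integrin chain that pairs with Itgb1 and binds collagen. Its signals were 2050, 2215, 2152 and 2267 in F344, against 219 to 438 with a median of 368 in the others. The 3 other strains were alike, with means of 332 in LEW, 369 in COP and 351 in DA, and F344 was 5.89-fold above the nearest of them, COP (log2 difference 2.56, SE 0.16, limma adjusted p = 8.80e-10). Its neighbour Mocs2, an enzyme of molybdenum cofactor synthesis, was also private and higher (mean of 3432 in F344, against LEW at 2373, COP at 2343 and DA at 2239). Of 21 tested integrin genes, Itga1 and Itgb1 were the private ones, both higher (9.52%, where 2.25% of all genes were private and higher), and Itgb1 did not pass (0.15 from DA, limma adjusted p = 0.309).

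RT1-A, which encodes a classical class I heavy chain, had signals of 1037, 1051, 908 and 1365 in F344, against 117 to 357 with a median of 226 in the others. It was 3.45-fold above COP, the nearest strain (log2 difference 1.79, SE 0.18, limma adjusted p = 2.14e-06). The F344 arrays were all above the others, as the rule requires. Plekhb1, a membrane-associated protein with a pleckstrin homology domain, had signals of 4209, 4135, 4247 and 3979 in F344, against 543 to 1910 with a median of 1352. For Plekhb1 the other strains were themselves far apart, at means of 636 in LEW, 1358 in COP and 1779 in DA, and F344 was 2.33-fold above DA (log2 difference 1.22, SE 0.078).

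Several enzymes of carbonyl and quinone reduction, grouped here after their values were seen, were private and higher. Akr1b8, an aldo-keto reductase on chromosome 4, had signals of 1010, 1099, 1037 and 1118 in F344, against 224 to 521 with a median of 418. Its neighbour Akr1b1, aldose reductase, was private and higher without passing (means of 8106 in F344, against LEW at 6724, COP at 6932 and DA at 7142). The other kept probe set of Akr1b1 was not private, with differences of -0.0030, -0.094 and 0.070 from LEW, COP and DA. Nqo2, a quinone reductase on chromosome 17, had 1466, 1314, 1343 and 1299 in F344, against 600.3 to 770 with a median of 678. The arrays of F344 and of the other strains were apart for Akr1b8 and Nqo2, with log2 differences from the nearest strain of 1.23 (SE 0.15) and 0.95 (SE 0.099) and limma adjusted p-values of 1.51e-05 and 2.42e-06. Akr1c15, another aldo-keto reductase of chromosome 17, had a mean of 1201 ± 62.0 in F344 and 594 ± 131 in DA, the nearest strain (SD, n = 4 each; log2 difference 1.04, SE 0.16, limma adjusted p = 5.45e-04). Over the whole list of glutathione and xenobiotic enzymes, to which Nqo2 and Akr1c15 do not belong, 3 of 49 tested genes were private and higher (Akr1b8 among them) and 2 lower, or 10.2% of the list, where 5.26% of all genes were private.

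Fxyd2, a regulatory subunit of the sodium and potassium pump, was 1238, 1276, 1177 and 1104 in F344, against 499 to 683 with a median of 595 in the others. Cxcl9, an interferon-induced chemokine that attracts T cells, was 907, 962, 965 and 1013 in F344, against 235 to 587 with a median of 338. Fcgr3a, a receptor for the constant part of antibodies on macrophages and natural killer cells, was 753, 720, 711 and 688 in F344, against 257 to 447 with a median of 348. By the rule, no F344 array of these 3 genes fell within the range of the others. Their log2 differences from the nearest strain were 0.96 from LEW for Fxyd2, 1.0 from COP for Cxcl9 and 0.91 from DA for Fcgr3a (limma adjusted p = 2.14e-06, 2.35e-04 and 2.35e-04). A dimmer probe set of Cxcl9 was private the same way, at a mean of 726 in F344, against LEW at 135, COP at 325 and DA at 148.

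Smaller rises that passed included Mcpt8, a protease of the mast cell protease family known from basophils in mice (means of 5869.5 in F344, against LEW at 3533, COP at 3609 and DA at 3673), and Cd3g, a chain of the T-cell receptor complex (means of 1742 in F344, against 848, 1046 and 712). Apoe, a lipid carrier protein, had means of 6473 in F344, against 4667, 4363 and 4853. Slfn9, a gene of the Schlafen family, had means of 2044 in F344, against 1082, 1202 and 1311, and its neighbour Slfn5 means of 2372, against 1522, 1682 and 1810. The call of Slfn5 was lost without DA replicate 3 (limma adjusted p = 0.0574) or F344 replicate 3 (0.0529). Kdr, the main receptor of vascular endothelial growth factor, had means of 3847 in F344, against 3063, 3144 and 3060, which was 1.22-fold above COP (limma adjusted p = 0.00999).

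Cyp4v3 had the largest gap among the named genes lower in F344. This cytochrome P450 of fatty acid oxidation had signals of 77.7, 144, 90.8 and 102 in F344, against 1151 to 1952 with a median of 1418 in the others. All F344 signals lay under the filter level of 174, so the size of the fold rests on near-background signals, while the other strains were alike. The log2 difference from the nearest strain, COP, was -3.61 (SE 0.16, limma adjusted p = 2.11e-12). Klkb1, the plasma prekallikrein gene and the next gene to Cyp4v3 in RefSeq, went the other way. Its probe set, which failed the filter and was singled out after its values were seen, had 371, 388, 376 and 387 in F344, against 2.29 to 47.6 with a median of 5.27.

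Setd1b, which methylates histone H3 at lysine 4, had signals of 133, 134, 279 and 177 in F344, against 1764 to 3496 with a median of 2066. Slc3a1, a subunit of an amino acid transporter for cystine, had 202, 220, 169 and 206 in F344, against 1088 to 1509 with a median of 1299. The lowest other array was 6.33-fold above the highest F344 array for Setd1b and 4.95-fold for Slc3a1. The log2 differences from the nearest strain were -3.47 from LEW for Setd1b (SE 0.16, limma adjusted p = 7.00e-12) and -2.59 from DA for Slc3a1 (SE 0.099, limma adjusted p = 2.41e-13). Vof16, for which no role is given here, had 112, 115, 119 and 99.8 in F344, against 502 to 1579 with a median of 885, and the other strains differed among themselves, at means of 1370 in LEW, 536 in COP and 866 in DA.

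Hyou1, a chaperone of the endoplasmic reticulum, had signals of 180, 88.6, 161 and 134 in F344, against 504 to 1001 with a median of 632. Zfp347, a zinc finger gene, had 192, 281, 244 and 206 in F344, against 779 to 1134 with a median of 901. Both were separate from all other arrays, by log2 differences of -2.09 from COP for Hyou1 (SE 0.18, limma adjusted p = 1.94e-07) and -1.92 from LEW for Zfp347 (SE 0.13, limma adjusted p = 3.92e-09). Over all kept probe sets, 7 had every F344 signal below the filter level and every other signal above it, and 0 had the reverse. The filter uses the mean over all arrays and so tends to remove probe sets with the reverse pattern. The split of 7 against 0 therefore cannot show a preferred direction. The unkept probe set of Klkb1 had the reverse pattern, at 371 to 388 in F344, against 2.29 to 47.6 in the others. Of the 57 private probe sets that failed the filter, 39 were higher and 18 lower in F344.

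Pf4, platelet factor 4, a chemokine stored in the granules of megakaryocytes and platelets, was the brightest of the 12 named falls with the largest gaps. Its signals were 9337, 9399, 9674 and 9531 in F344, against 21763 to 31571 with a median of 24947. The F344 arrays were within a narrow band far below the others, 2.37-fold below DA (log2 difference -1.25, SE 0.072, limma adjusted p = 2.04e-10). Of the 18 tested genes of the megakaryocyte and platelet list, 1, Pf4, was private to F344 (5.56%, against 5.26% of all genes). The average contrast called 9 of the 18 lower and 0 higher in F344, where it called 1132 of all 10548 genes lower and 1101 higher. The median difference of the list was -0.29. Its summed signal was 57965 to 59157 on the F344 arrays, against 72851 to 92613 on the others, and 48452 to 49482, against 50126 to 61041, without Pf4. The list thus lay below all other arrays as a sum, while single markers could overlap: Itga2b, an integrin chain of platelets, had signals of 1776 to 1955 in F344, against 1459 to 2843 in the others.

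Tifa, an adaptor in signalling to NF-kappaB, had signals of 2205, 1970, 2107 and 2198 in F344, against 4302 to 7101 with a median of 5261 (log2 difference of -1.21 from DA, limma adjusted p = 5.26e-08). Hpse, heparanase, which cuts heparan sulfate chains of the matrix, had 143, 120, 129 and 218 in F344, against 378 to 739 with a median of 575. Spc24, a part of the kinetochore that ties chromosomes to the spindle, had 1735, 1692, 1600 and 1532 in F344, against 2859 to 3647 with a median of 3198. The F344 arrays were below all others in the 3 genes, as the rule requires. Krt79, a keratin, and Ssc4d, a scavenger receptor family protein, were the others of the 12, at means of 140 and 174 in F344, against 344 to 496 and 480 to 607 over the 3 other strains.

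**Figure D3:**
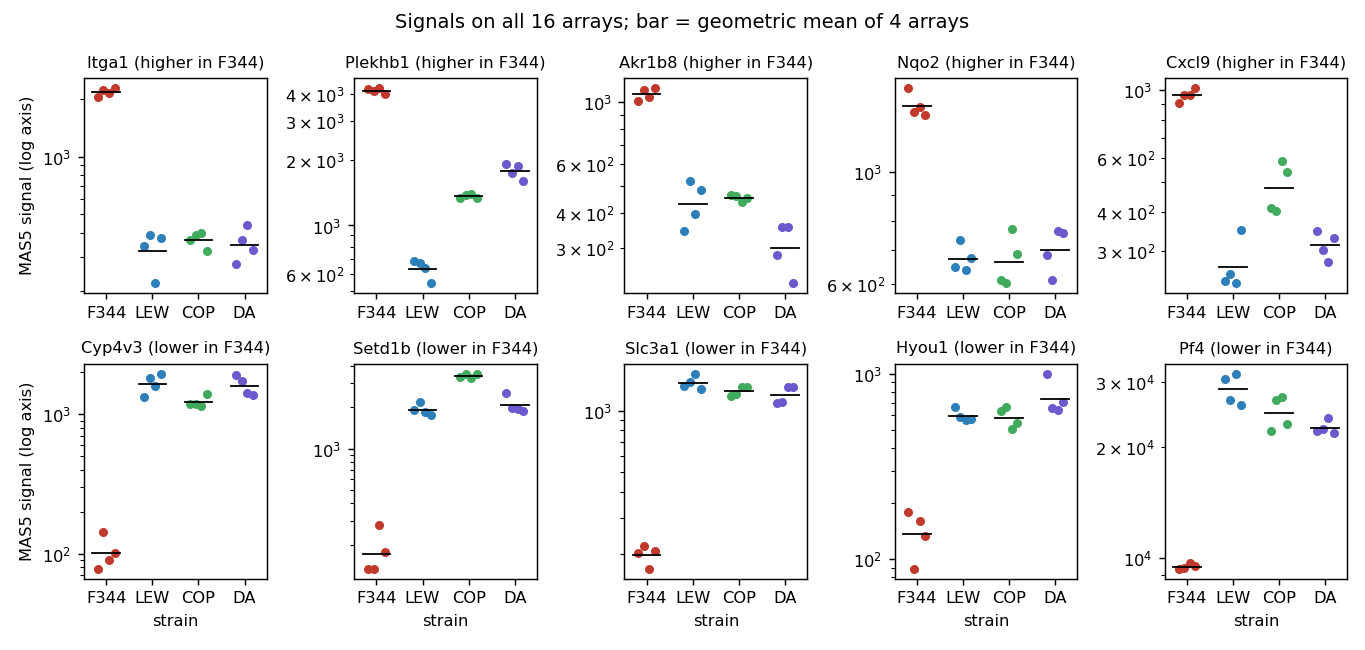
Signals (log axis) of 10 genes private to F344 on the 16 arrays, 4 points per strain, with the geometric mean as a bar; the upper panels show genes higher in F344 and the lower panels genes lower. By the private rule F344 is separate from the 12 other arrays in each panel. For Itga1, Nqo2, Cyp4v3 and Slc3a1 the other strains lie close together.

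Many genes of the B lymphocyte list, though not all, were lower in F344. Of its 16 tested genes, 8 were private and lower and 0 higher, where 3.01% of all genes were private and lower, and 7 of the 8 were called. Over all genes 1.27% were private, lower and called. The average contrast called 12 of the 16 lower and 2 higher, where it called 1132 of all 10548 genes lower and 1101 higher. The list was chosen with earlier results of these data known, so its direction is a description. The median difference of the list from the mean of the other strains was -0.58. Its summed signal was 26767 to 27750 on the F344 arrays, against 31273 to 47865 with a median of 42157 on the others.

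Cd79b, a signalling chain of the B-cell receptor, had signals of 1183, 1287, 1281 and 1088 in F344, against 1520 to 2793 with a median of 2167. Ms4a1, which encodes the B-cell surface protein CD20, had 1110, 1043, 1178 and 1216 in F344, against 1380 to 2360 with a median of 1918. Pou2af1, a coactivator of immunoglobulin gene transcription, had 3043, 2827, 2727 and 2636 in F344, against 3402 to 6062 with a median of 5133. All 3 were below every other array, with DA the nearest strain and log2 differences from it of -0.60, -0.59 and -0.51 (limma adjusted p = 0.00117, 0.00816 and 0.00526). Blnk, an adaptor of B-cell receptor signalling, Fcrla, an Fc receptor-like protein of B cells, Cd37, a tetraspanin, and Btk, the tyrosine kinase downstream of the receptor, also passed, with differences from the nearest strain of -0.51, -0.62, -0.50 and -0.37.

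Ebf1, a transcription factor that sets up the B lineage, was private and lower without passing (differences of -0.52, -0.40 and -0.25 from LEW, COP and DA, limma adjusted p = 0.165). Vpreb3, of B-cell precursors, was called (limma adjusted p = 0.0191) and not private, with differences of -2.41, -1.86 and -0.58. The list was not uniform: Fcrl2 had differences of 2.18, 0.36 and 1.95 and Cd22, an inhibitory receptor, 0.24, 0.59 and 0.87. The mean log2 level of the list, centred per gene, was -0.34 to -0.27 on the F344 arrays, and DA replicate 1 lay within that range at -0.29, so the list mean did not separate F344 from every other array as its 8 private genes did. The other DA arrays were at -0.16 to 0.086.

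Neutrophil granule genes also held private falls. Of 20 tested genes 6 were private and lower and 0 higher, against 3.01% of all genes, and 3 of the 6 passed. Camp, an antimicrobial cathelicidin of the granules, had signals of 11117, 11854, 10756 and 11184 in F344, against 14244 to 24453 with a median of 20108 (log2 difference of -0.44 from LEW, SE 0.056, limma adjusted p = 4.64e-05). Mmp8, neutrophil collagenase, had 1804, 1876, 1876 and 1848 in F344, against 2162 to 4412 with a median of 3302 (-0.36 from LEW, SE 0.076, limma adjusted p = 0.00958), and was lost without LEW replicate 2 (limma adjusted p = 0.0511). Both genes were below all other arrays, and the mean log2 level of the list was -0.35 to -0.31 in F344, against -0.015 to 0.20 in the others.

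Lcn2, a granule protein that binds bacterial iron carriers, shows what the rule does where another strain is also low. Its signals were 878, 817, 831 and 812 in F344, against means of 12526 in LEW, 17160 in COP and 1023 in DA. The F344 arrays were all below the lowest DA array, at 963, yet the difference from DA was -0.29 (SE 0.066, limma adjusted p = 0.0160) and those from LEW and COP were -3.91 and -4.36. The call was lost without F344 replicate 2, 3 or 4 or DA replicate 3, with limma adjusted p-values of 0.0501 to 0.0578. The abundant neutrophil transcripts S100a8 (-0.093, -0.26 and -0.26 from LEW, COP and DA) and S100a9 (-0.056, -0.18 and -0.14) were not private.

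Of 47 tested cell cycle genes, 12 were private and lower and 0 higher, again where 3.01% of all genes were private and lower, and 4 passed. Ttk, a kinase of the spindle checkpoint, had signals of 1316, 1117, 1223 and 1211 in F344, against 1508 to 2673 with a median of 2116. Top2a, the topoisomerase of dividing cells, had 7269, 6631, 7023 and 6937 in F344, against 8025 to 10264 with a median of 8884. Bub1b, another checkpoint protein, had 2027, 2162, 2068 and 1950 in F344, against 2376 to 3066 with a median of 2676. All 3 were below every other array, by log2 differences from the nearest strain, COP, of -0.65, -0.32 and -0.35 (limma adjusted p = 1.99e-04, 0.00805 and 0.0132). Bub1b was lost without F344 replicate 4 (limma adjusted p = 0.0578). The proliferation markers Mki67 and Pcna were private and lower by small gaps and did not pass (limma adjusted p = 1 and 0.892). The list's summed signal was 206632 to 209479 in F344, against 221436 to 262733 in the others.

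Of the 28 gene lists, 5 had a summed signal that lay lower on all F344 arrays than on any other, and 3 had one that lay higher; in the other 20 the arrays overlapped. The lower sums were those of the B lymphoid, neutrophil, cell cycle, megakaryocyte and chemokine lists, the last at 63368 to 63984 in F344, against 81309 to 91900 in the others (53694 to 54453, against 55572 to 65346, without Pf4). The higher sums were those of the class II list, of the immediate early and heat shock list (109679 to 113056 in F344, against 96242 to 108349) and of the integrins (45613 to 46616 in F344, against 41781 to 44483), and the integrin sums overlapped without Itga1 (43398 to 44349, against 41413 to 44106). By the mean log2 level, which weighs every gene alike, 3 lists lay lower on all F344 arrays (neutrophil, megakaryocyte and cell cycle). The megakaryocyte list did so narrowly, with its highest F344 array at -0.202 against LEW replicate 4 at -0.192. Higher were 2 lists, class II, and immediate early and heat shock at 0.13 to 0.17, against at most 0.11 in the others. Immediate early genes respond quickly to handling of tissue as well as to growth signals, and their part in the other differences was not tested. On the same arrays the mean log2 level of the skeletal muscle list was 0.13 to 0.20 in F344, against -0.52 to 0.25 in the others, that of the growth plate cartilage list 0.15 to 0.20, against -0.41 to 0.38, and that of the erythroid list -0.14 to -0.11, against -0.27 to 0.27. The F344 levels of these 3 lists fell inside the range of the other arrays. The average contrast, however, called 12 of 38 muscle genes higher and 0 lower, and 3 of 21 cartilage genes higher and 0 lower. It called 1 of 32 erythroid genes higher and 12 lower, where it called 1101 of all 10548 genes higher and 1132 lower. The part that the mix of tissues plays in the marrow lists was not tested.

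Genes of the osteoblast, osteocyte and osteoclast lists were private at the share of all genes, 3 of 57 (5.26%). Of 27 osteoblast and bone matrix genes 1 was private, Bmp3, a bone morphogenetic protein that acts against the others of its family and lowers bone density in mice. It had signals of 441, 349, 608 and 493 in F344, against 728 to 1548 with a median of 988, a log2 difference of -1.0 from DA (SE 0.18, limma adjusted p = 0.00263). Of 12 osteocyte and phosphate genes 2 were private: Hyou1, described above, and Ankh, a membrane protein of pyrophosphate export (means of 3100 in F344, against LEW at 2478, COP at 2436 and DA at 1885). Ankh passed narrowly (limma adjusted p = 0.0469), with 0.0378 to 0.211 over its alternatives, and lost the call in 12 of the 16 fits that left out 1 array (limma adjusted p of 0.0582 to 0.211). Of 19 osteoclast genes 0 were private, and of 21 cartilage genes 0.

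In the insulin-like growth factor axis, Igfbp4, a binding protein that holds back the growth factors, had signals of 873, 733, 729 and 774 in F344, against 996 to 1371 with a median of 1129 (log2 difference of -0.42 from COP, SE 0.089, limma adjusted p = 0.00965). It was 1 of 2 private genes of 22 (9.09%, against 5.26% of all genes), the other being Grb10, which was higher and did not pass. Of 29 endothelial genes 2 were private and higher (Kdr and Pdgfrb) and 2 lower (Cldn5 and Icam2), together 13.8%, against the same 5.26%. Cldn5, the tight junction protein of endothelium, had signals of 1378, 1059, 1334 and 1469 in F344, against 1913 to 4969 with a median of 3876, a difference of -0.76 from LEW (SE 0.12, limma adjusted p = 3.88e-04).

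Chemokines and cytokines also went both ways. Of 40 tested genes 3 were private and higher, Cxcl9, Cxcl16 and Il18, and 4 lower, Pf4, Ccl9, Ccl21 and Il6r; all 3 higher genes and Pf4 and Ccl9 passed. The 7 are 17.5% of the list, where 5.26% of all genes were private. Cxcl16, a membrane-bound chemokine of macrophages, had means of 1043 in F344, against LEW at 487, COP at 605 and DA at 684, and Ccl9, a chemokine of myeloid cells known from mice, 1117 in F344, against 2066, 2145 and 1835. Of 34 interferon-response genes 3 were private and higher (8.82%, against 2.25% of all genes), Ifi44l, Gbp2 and Irf1, and 0 were called; the largest-p test gave Ifi44l an adjusted p of 0.0601 by limma. Of 35 ribosomal protein genes 2 were private and lower (5.71%, against 3.01% of all genes). Of 49 oxidative phosphorylation genes 2 were private and higher (4.08%, against 2.25%), and of 38 muscle genes 2, Myh4 and Cacna1s, were private and higher (5.26%, against 2.25%), with 0 called in these 3 lists.

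Other probe sets of a gene give a further reading that did not choose the member, from the same RNA. Of the 555 private genes 157 had 209 other kept probe sets, of which 39 (18.7%) were private the same way and 101 differed from all 3 other strains in the same direction without being private. Another 47 had mixed directions, 18 the opposite direction throughout and 4 were private the opposite way. Among the 209 private genes that were called, 55 had 73 other kept probe sets, of which 20 (27.4%) were private the same way, 36 had the same direction, 11 mixed, 5 opposite, and 1 was private the opposite way.

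A signal that is higher or lower in F344 is that of 1 probe set, and the probe sequences were not used here, so whether strain differences in the sequence under the probes bear on the private signals, those named above included, was not tested. Some of the widest F344 gaps belonged to a dimmer probe set of a gene and not to its brightest; the next 4 genes were chosen after their values were seen. Dguok, the mitochondrial deoxyguanosine kinase on chromosome 4, had signals of 15.8, 4.68, 9.31 and 6.61 in F344, against 447 to 841 with a median of 631. Its brightest probe set had 559, 847, 991 and 646 in F344, against 460 to 788 with a median of 613. The first put F344 far below all other arrays (a gap of 4.82), and on the second the strains overlapped and the differences were 0.33, 0.28 and 0.25 from LEW, COP and DA. Ddx42, an RNA helicase, did the reverse, with 1558, 1853, 1793 and 1869 in F344, against 90.0 to 217 with a median of 143 on a dim probe set, and means of 2105 in F344, against 2174, 2199 and 2233 on the brightest.

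P3h4, a protein of the collagen-modifying complex of the endoplasmic reticulum, was private in opposite directions. A dim probe set had 761, 822, 936 and 906 in F344, against 197 to 338 with a median of 239, and the brightest had 1506, 1523, 1520 and 1336 in F344, against 1737 to 2878 with a median of 1942. F344 was thus above all others on the first and below all others on the second. Ptgr2, a prostaglandin reductase, was private and higher on both, at means of 551 in F344, against 197, 209 and 196, and 2661 in F344, against 1737, 1633 and 1841. Over all 55 kept probe sets with 1 symbol and a gap of at least 0.5, 21 had another kept probe set of the gene, which was private the same way for 12, shared only the direction for 4 and had neither for 5 (Egfr, Rab14, Dguok, Ddx42 and Snx19).

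**Figure D4:**
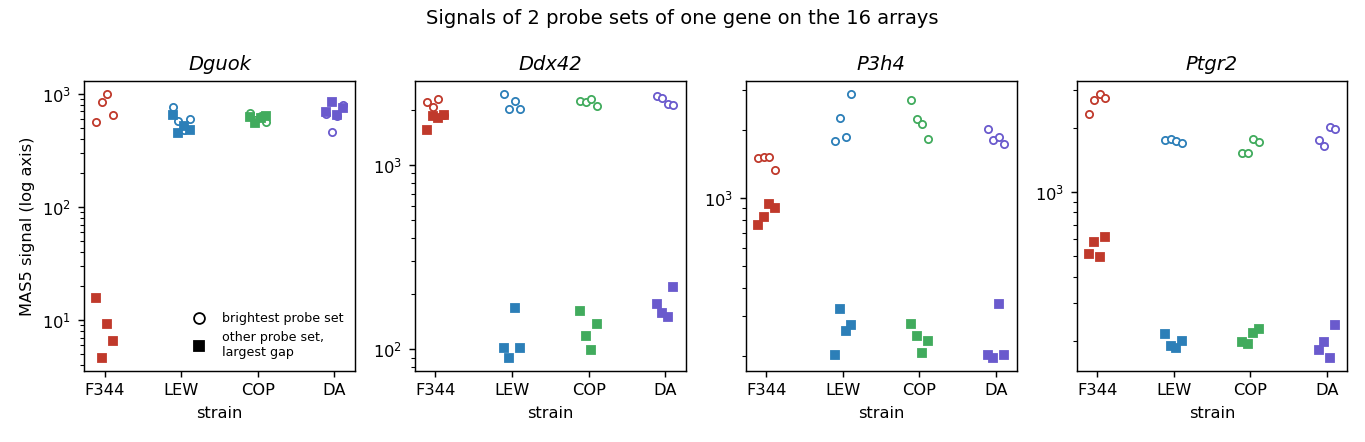
Signals (log axis) of the brightest probe set (open circles) and of the other probe set with the largest gap (filled squares) of 4 genes on the 16 arrays. The squares of Dguok fall to 4.68 to 15.8 in F344 while its circles overlap between strains; only for Ptgr2, among these 4, do both probe sets place F344 on the same side.

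On chromosome 4, the chromosome of the skeletal locus, 29 of 606 tested genes were private to F344 (4.79%), 14 higher and 15 lower, and 10 were private and called (1.65%), where all genes gave 5.26% and 1.98%. The shares for other chromosomes ran from 2.99% on chromosome 19 to 9.34% on chromosome 17, with 8.26% on chromosome 14 and 7.24% on chromosome 8. Chromosome 4 was thus near the share of all genes. The bounds of the locus were not given, and the count covers the whole chromosome.

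After Akr1b8, the named chromosome 4 genes with the widest gaps by their brightest probe set were lower in F344, apart from Cacna2d1. The wider gap of Dguok, given above, was on a dimmer probe set, which this ranking and the chromosome count leave out. Retsat, an enzyme of retinol metabolism, had signals of 2175, 2416, 2300 and 2146 in F344, against 3252 to 4247 with a median of 3657. Reln, the secreted protein reelin, had 652, 614, 622 and 629 in F344, against 873 to 1320 with a median of 1051. Cacna2d1, an auxiliary subunit of calcium channels, had 5316, 4645, 5030 and 5365 in F344, against 2864 to 3904 with a median of 3289. These were apart from all other arrays, by differences from LEW, the nearest strain, of -0.67, -0.67 and 0.53 (limma adjusted p = 4.66e-05, 5.54e-04 and 3.73e-04). Ppm1k, a phosphatase that activates the breakdown of branched-chain amino acids, and Cep41, a centrosomal protein, had means of 620 and 716 in F344, against 873 to 999 and 1151 to 1185 over the other strains' means. The other kept probe sets of Cep41 (2) and of Ppm1k (1) were not private.

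**Figure D5:**
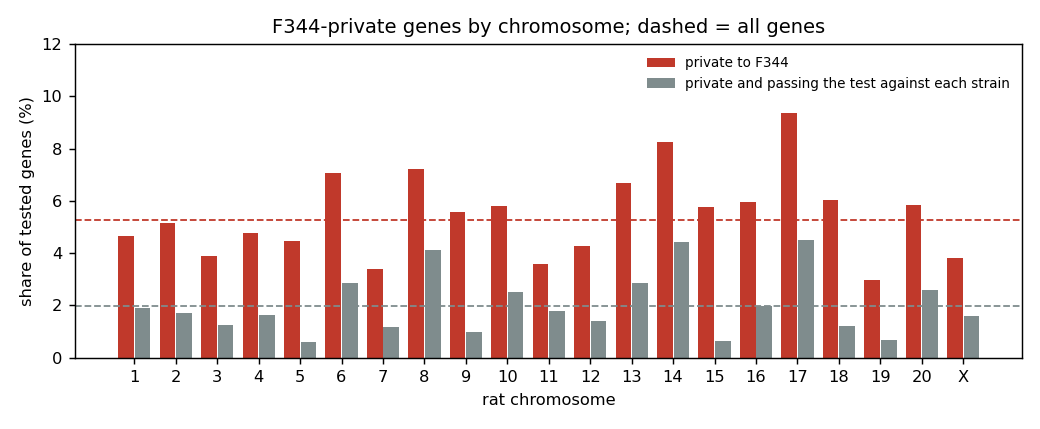
Bars give the share of tested genes on each rat chromosome that were private to F344 (red) and private and called against each other strain (grey); dashed lines are the shares of all genes, 5.26% and 1.98%. Chromosome 17 stands highest at 9.34%, chromosome 19 lowest at 2.99%, and chromosome 4 lies at 4.79%.

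Of 10490 pairs of adjacent tested genes, both members were private to F344 in 52, and in 37 of these they moved the same way; the same count was 14 for LEW, 28 for COP and 14 for DA, which had fewer private genes. Besides the class II genes, runs of at least 3 were Ptprcap, Tbc1d10c and Ppp1ca on chromosome 1 (all lower), Ublcp1, Rnf145 and Ebf1 (all lower) and Unc45b, Slfn5 and Slfn9 (all higher) on chromosome 10. Mixed runs were Ccdc86, LOC100910973, Ms4a1 and Ms4a7 on chromosome 1, Pou2af1, Fdx1 and Rdx on chromosome 8 and Fcgr3a, Sdhc, Fcer1g and Adamts4 on chromosome 13. Several B lymphoid genes were in such runs or pairs, among them Ms4a1, Pou2af1, Ebf1 and Cd79b, which stands beside Icam2, an adhesion molecule that was private and lower (means of 2323 in F344, against LEW at 2799, COP at 3257 and DA at 3063). The call of Icam2 was lost without F344 replicate 2, 3 or 4 or LEW replicate 2 (limma adjusted p of 0.0531 to 0.0565).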

How the data were processed

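Total RNA of proximal femora was measured on 16 arrays, grouped by the strain in the labels. The deposited intensity values are 1 linear signal per probe set and array, and per the submitters' processing notes the tool was MAS5; the version, scaling target and detection calls are not given in these sources. Every array's 2% trimmed mean was near 1000, which shows prior scaling by the authors; it leaves the shape of each array and the noise of dim probe sets. Per the labels' protocols, cRNA was made from 5 ug of RNA.

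Of 31099 probe sets 57 controls were left out. Names came from the platform annotation (20826 probe sets with 1 symbol, 436 with several, 9780 with none); 20758 matched the RefSeq table of GRCr8, which gave chromosome and gene order. Signals were floored at 1 (255 values) and log2 taken. A filter at the 40th percentile of mean log2 signal kept 18625 probe sets, or 10548 genes by the brightest kept probe set of each.

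A mean per strain was fitted with limma 3.58.1 (R 4.3.3), with an intensity trend (12 residual degrees of freedom). A probe set was called where all 3 differences F344 minus LEW, COP and DA had 1 sign and the largest of their two-sided p-values, adjusted by Benjamini-Hochberg over kept probe sets, was under 0.05. Tested on simulated data for this comparison (10 simulations of 18625 probe sets, 200 changed), it found 45.2% of the changes of size 0.5 in log2. It found 89.4% at size 1 and 99.2% at size 2, with 0.2 false calls per simulation. In the simulations LEW, COP and DA shared 1 mean, except for probe sets changed in LEW only. The measured strains can differ among themselves, as for Plekhb1, and recovery in that case was not tested. 

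Members and gene lists were chosen with earlier results of these data known. Named genes were private, called and had 1 symbol that was not a locus number: the 12 largest gaps in each direction, the 6 largest on chromosome 4, up to 3 per list, members of runs of at least 3 adjacent private genes, genes with all F344 signals and all others on opposite sides of the filter level with a gap of at least 1, and the nearest probe sets on either side of the rule, which need not be called. Neighbours and other list members mentioned in the text fall outside this rule and were chosen after their values were seen. The 6 called symbols that number a locus were skipped, the widest being RGD1309362 (means of 66.2 in F344, against LEW at 1217, COP at 1167 and DA at 1128). RT1-A had no RefSeq match, so no chromosome is given for it. Same-numbered arrays did not vary together (24 correlations of -0.173 to 0.0875, 0 above 0.1), so numbers do not pair arrays. Alternatives were median centring, quantile normalization, no filter or a filter at the 60th percentile, a pseudocount (19.3, the 10th percentile of values), array weights, robust moderation, moderation without the trend, a replicate block, a minimum gap of 0.5, a threshold of 0.10, averaging the probe sets of each gene, and leaving out each array.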

Additional observations from a re-analysis of the deposited data

Results flagged for a closer look

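In the named genes, each strain's 4 arrays were searched for 1 array far from the other 3, by Dixon's ratio of the gap to the whole range, at its 95% critical value. Of 228 groups 14 passed, where chance gives about 1 in 20. A single F344 array stood apart in 1 gene: Icam2 on F344 replicate 1 (ratio 0.956, 2461 against 2274 to 2281 on the other F344 arrays), which lies nearer to the other strains. COP replicate 3 stood apart in 4 genes: Akr1c15 (0.953, high), Fcrla (0.856, low), Ms4a1 (0.830, low) and Top2a (0.872, low). LEW replicate 4 stood apart in 3: Cxcl9 (0.832, high), Ttk (0.833, low) and Icam2 (0.865, low). The other LEW cases were Col15a1 on replicate 3 (0.873, low) and Ankh on replicate 1 (0.857, low). The other COP cases were Zfp347 on replicate 1 (0.949, low) and Reln on replicate 2 (0.8291, high), and those of DA were Setd1b (0.833, high) and Ttk (0.896, low), both on replicate 1. The named genes are private, so by the rule no LEW, COP or DA array can lie within the F344 range of its gene.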

How the results depend on the processing

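Of 1311 values (57 named genes under 23 other settings), 1263 kept their direction and stayed past the threshold. Another 48 kept their direction and missed it, and 0 reversed. The named genes are private, so leaving out an array, the pseudocount or a change of the fit alone cannot reverse them. For those settings the 0 is no further result. The misses were in 8 genes: Ankh, Car1, Rnf145, Lcn2, Icam2, Slfn5, Bub1b and Mmp8; 39 of them came from leaving out an array, 12 in Ankh, 10 in Rnf145 and 5 in Car1. Private probe sets numbered 908, with 842 under median centring and 936 under quantile normalization. By construction, the stricter filter and a minimum gap of 0.5 can only remove private probe sets, and left 756 and 83. Leaving out 1 array can only add private probe sets, and gave 938 to 1247. The count called against each other strain was 376, with 303 to 494 under the other settings and 283 to 424 without 1 array, the lowest 4 without an F344 array. For the average contrast it was 3655 probe sets, and 2541 to 3994 without 1 array. With the replicate number as a block, 348 were called and 335 shared with the 376, although numbers did not pair the arrays; Ankh (limma adjusted p = 0.0800) and Car1 (0.0614) were lost. Median centring gave 1 private muscle gene in place of 2 and quantile normalization 5; quantile normalization gave 0 ribosomal protein genes in place of 2. Signals near background limit the folds of the genes whose F344 means lay under 174.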

Other observations

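The private probe sets included many that no gene name reaches. Of the 908 private kept probe sets, 192 had no symbol and 21 several; of the 37 probe sets with a gap of at least 1 (15 higher and 22 lower in F344, with or without the filter), 15 had no symbol and 2 several. The widest gap of all, 5.96, belonged to an unkept probe set of the class I gene RT1-CE5, with 2.90, 1.27, 5.45 and 4.89 in F344, against 339 to 1648 with a median of 503 in the others. A further unkept probe set of RT1-CE5 was private and lower too, while the kept one was not private (377, 290, 246 and 417 in F344, against 230 to 1723). An unkept probe set of Ro60, an RNA-binding autoantigen, had 318, 305, 291 and 329 in F344, against 23.7 to 137 in the others. These genes were chosen after their values were seen.

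Other cell types and pathways had private shares above and below that of all genes, which was 5.26%. The shares were 19.2% for monocytes and macrophages, 11.8% for mast cells, basophils and eosinophils, 9.38% for erythroid genes, 7.69% for T and natural killer cells, 6.67% for immediate early and heat shock genes, 4.76% for collagens and matrix enzymes, 4.44% for the BMP and TGF-beta pathways and 3.45% for the Wnt pathway, each resting on 1 to 5 genes. Of 26 monocyte and macrophage genes 3 were private and higher (Fcgr3a, C1qa and Ms4a7, with Fcgr3a called) and 2 lower (Lyz2 and Fcer1g). Of 17 mast cell, basophil and eosinophil genes Mcpt8 and Mcpt10 were private and higher, and Cd3g was the private gene among 13 of T and natural killer cells. Of 32 erythroid genes 1 was private and higher and 2 lower, Car1, the red cell carbonic anhydrase, among them (means of 21733 in F344, against LEW at 30401, COP at 27175 and DA at 29332). Of 42 collagen and matrix enzyme genes Col15a1 and Adamts4 were private and higher, of 29 Wnt pathway genes Tcf7, and of 30 immediate early and heat shock genes Ier3 and Atf3. Bmp3 (lower) and Tgfbr1 (higher) were the private genes among 45 of the BMP and TGF-beta pathways.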
